A study of Mus musculus with 24 samples.

Results

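The comparison was of 6 tumors treated with T-PNU and 6 untreated tumors, 12 of the 24 samples in the series, across all 16996 genes of the authors' normalized expression values. Samples entered by their labelled treatment alone, and no gene was selected. RNA was sequenced from CD45+ cells, the leukocytes that magnetic beads enriched from tumors, with 1 library per mouse. The tumors were EMT6-hHER2, a clone obtained by sorting single cells of a mouse mammary carcinoma line that carries human HER2 from a PiggyBac transposon vector with a PGK promoter, and every mouse in both groups bore that clone. The hosts were female Balb/c mice, labelled 10 to 12 weeks old, with EMT6-hHER2 cells injected into the mammary fat pad. The T-PNU mice were given 1 intravenous dose of 1 mg/kg at a tumor volume of 80 mm3. The untreated mice received no antibody or conjugate, and tumors were taken on day 10. By the study's methods, T-PNU tumors were smaller at harvest than at treatment, and harvest volumes of single tumors are not given. Tumor size at harvest and treatment cannot be told apart. Samples are named by their plate wells, A1 to F1 for untreated and G1, H1, A2, B2, C2 and D2 for T-PNU. The column headers also carry a number for each sample, whose meaning is not stated, and these numbers form one block for untreated and another for T-PNU samples, as do the wells. Well position or number block and treatment cannot be told apart.

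T-PNU is trastuzumab, an antibody against human HER2, linked to an anthracycline derivative. Anthracyclines intercalate into DNA and block topoisomerase II, and a conjugate of this kind delivers them into cells that display the antibody's target. Tumor leukocytes are a mixture of macrophages and monocytes, neutrophils, dendritic cells, natural killer cells and lymphocytes, so a gene can differ because cells express it differently or because their proportions differ. Fewer cells of a type and less RNA per cell cannot be told apart in bulk samples.

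Untreated samples B1 and C1 stood apart from the other 4 untreated samples, and the study's heatmaps do not show them. The study's methods state that samples could be removed for unlike expression but give no reason for these particular samples. Both comparisons, 6 T-PNU against 6 untreated samples and 6 against 4 without B1 and C1, were therefore made. Leaving out samples for their expression and then testing expression can lower p-values. Calls against 4 untreated samples are therefore descriptive, since that choice of samples may depend on the outcome. Ptprc, which encodes CD45 itself, lay at 14.3 to 14.5 in the 4 other untreated samples, at 15.2 in both B1 and C1 and at 14.7 to 15.5 in the T-PNU samples on the log2 scale of the deposited values. The depth behind the values is unknown. Sample medians lay between 8.73 and 8.82, and the median log2 fold change (T-PNU minus untreated) of all genes was 0.01 against 6 and 0.02 against 4 untreated samples.

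Against all 6 untreated samples, 23 genes were higher and 9 were lower in T-PNU tumors at an adjusted p under 0.05, which is 0.135% and 0.0530% of the genes tested. Their adjusted p-values (limma, Benjamini-Hochberg over all genes) began at 0.0463, so all 32 lay close to the threshold. An unadjusted p under 0.05 was reached by 4218 genes. Without B1 and C1, 1987 genes were higher (11.7%) and 2331 were lower (13.7%), and 7181 genes had an unadjusted p under 0.05. All 32 genes of the comparison with 6 untreated samples were called in the same direction there. No gene of the comparison with 6 passed a false discovery rate of 0.01 and a 2-fold change, the cutoffs in the study's methods. Without B1 and C1, 38 higher and 25 lower genes passed them. The study applied these cutoffs to DESeq2 fits of read counts. Here they were applied to limma fits of log2 values whose transformation is not given, so these numbers cannot be set against the study's.

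The number of genes called turned on single samples. Leaving out C1 alone gave 1283 higher and 1646 lower genes, leaving out T-PNU sample G1 gave 221 and 788, and leaving out A2 gave 85 and 156. Leaving out any of the 9 other samples left no more than 6 genes, B1 among them with 0 and 0. A fit of the 12 samples by themselves, without the trastuzumab and T-DM1 groups, called 0 genes at a smallest adjusted p of 0.193, with 3133 at an unadjusted p under 0.05.

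**Figure D1:**
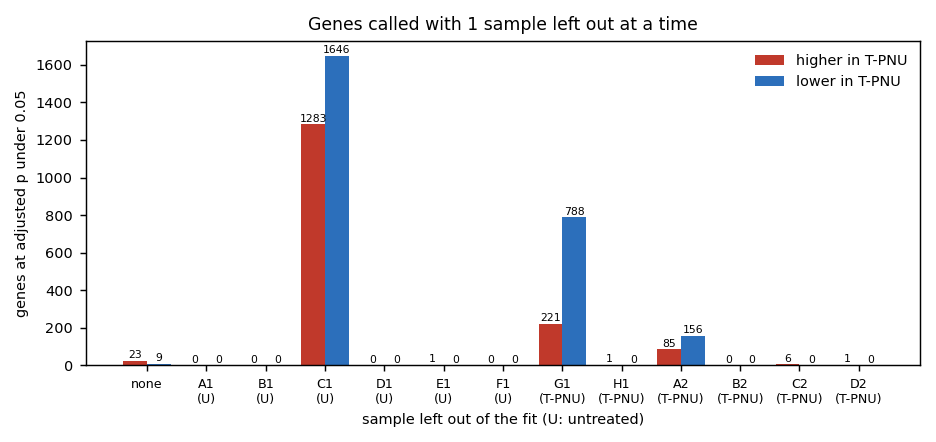
Bars give the number of genes at an adjusted p under 0.05 (limma), higher or lower in T-PNU, with all samples and with each untreated (U) or T-PNU sample left out. The count reached 1283 and 1646 without C1 and was 0 and 0 without B1.

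The 23 genes that rose against all 6 untreated samples were led by keratin 14, a cluster of monocyte and lymphocyte surface antigens, and cytotoxic granule proteases. Krt14 (chr11:100203162-100207548, GRCm38), the basal keratin of stratified epithelium, ran from 4.82 to 6.60 (median 5.71) in T-PNU and from 4.29 to 4.70 (median 4.61) in untreated samples, a 2.22-fold rise (log2 fold change 1.15 ± 0.23 SE). Its groups did not overlap. Apod, a lipocalin that binds lipids, rose 2.19-fold (1.13 ± 0.22), with T-PNU values of 7.16 to 8.81 and untreated values of 6.42 to 7.45. The overlap came from T-PNU sample C2, which lay below untreated B1 and C1.

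Ly6c1 and Ly6c2, which encode the Ly6C surface antigens of inflammatory monocytes and some T cells, rose by 1.05 ± 0.19 and 1.04 ± 0.20. Ly6c2 (chr15:75108158-75111970) lay at 12.9 to 13.5 in T-PNU and at 11.6 to 12.2 in 5 untreated samples. C1, at 13.1, was among the T-PNU values. These genes are near-identical neighbours, so how reads were divided between them is uncertain. Gzmc (chr14:56231441-56234656) and Gzmd, granzymes of activated cytotoxic cells that likewise resemble each other closely, rose 2.15-fold and 1.99-fold. Gzmc ran from 9.57 to 10.4 (median 9.73) in T-PNU and stood at 8.38 to 8.73 in all untreated samples but C1, where it was 9.87.

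Other immune genes among the 23 were Tlr9, the endosomal receptor for unmethylated CpG DNA, up by 0.72 ± 0.15, and Laptm5, a lysosomal protein of hematopoietic cells, up by 0.57 ± 0.10. Bcl3, an inhibitor-kappa-B family member that binds NF-kappa-B subunits p50 and p52, was 10.9 to 11.2 in T-PNU and 10.3 to 10.8 in untreated samples, with no overlap. Its rise was 0.48 ± 0.10, and the two-sided exact permutation p of 0.00216 is the smallest that 6 against 6 samples allow. Every gene without overlap has this p, which is not adjusted for the genes tested, so it adds nothing to the lack of overlap. Pdxk, the kinase that makes the active form of vitamin B6, Cmip, an adaptor described in T cells, and Usp2, a deubiquitinase, rose by 0.45, 0.38 and 0.34. Apoc1, an apolipoprotein of macrophages and liver, rose by 0.75 ± 0.14, from 3.56 to 3.69 in 5 untreated samples and 4.42 in C1 to 4.14 to 4.80 in T-PNU. Scamp2, a membrane trafficking protein, rose by 0.41 and Zfp703, a transcriptional corepressor, by 0.43.

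The remaining rises were also of genes at low levels. Krt14, Apod and Apoc1, described above, likewise had group means below 8.79, the median expression of all genes. Ces2e, a carboxylesterase, lay at 2.51 to 2.62 in the untreated samples and at 2.99 to 4.07 in T-PNU, without overlap. Sox13, a transcription factor of gamma delta T cells and several tissues, rose by 0.50 ± 0.10. Zfp750 and Ovol2, epidermal and epithelial transcription factors, rose by 0.42 ± 0.09 and 0.37 ± 0.08. Nipal2, Ckmt1, which encodes a mitochondrial creatine kinase, and Dnah1, an axonemal dynein, rose by 0.50, 0.47 and 0.33.

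Fdps (chr3:89093588-89101959), which makes the farnesyl diphosphate used for sterols and protein prenylation, fell the most of the 9 lower genes. It lay at 6.53 to 6.97 (median 6.76) in T-PNU, at 7.64 to 8.00 in 5 untreated samples and at 6.75 in C1, and it fell by 0.88 ± 0.18 against all 6. Galr3, a galanin receptor, fell by 0.73 ± 0.15, from 8.53 to 9.36 to values of 7.92 to 8.62. Cdca7, a cell cycle gene, fell by 0.40 ± 0.09. Oxct1, the enzyme that lets cells burn ketone bodies, and Eprs, the glutamyl-prolyl tRNA synthetase, fell by 0.35 ± 0.07 and 0.34 ± 0.07. Genes of RNA handling were the spliceosomal component Lsm6, down by 0.32 ± 0.07, and Mettl14, a subunit of the m6A methyltransferase, down by 0.30 ± 0.06. Thap1, a transcription factor, and Vezt, an adherens junction protein, fell by 0.31 ± 0.06 and 0.27 ± 0.06. Oxct1, Lsm6, Mettl14, Thap1 and Vezt did not overlap between the groups.

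**Figure D2:**
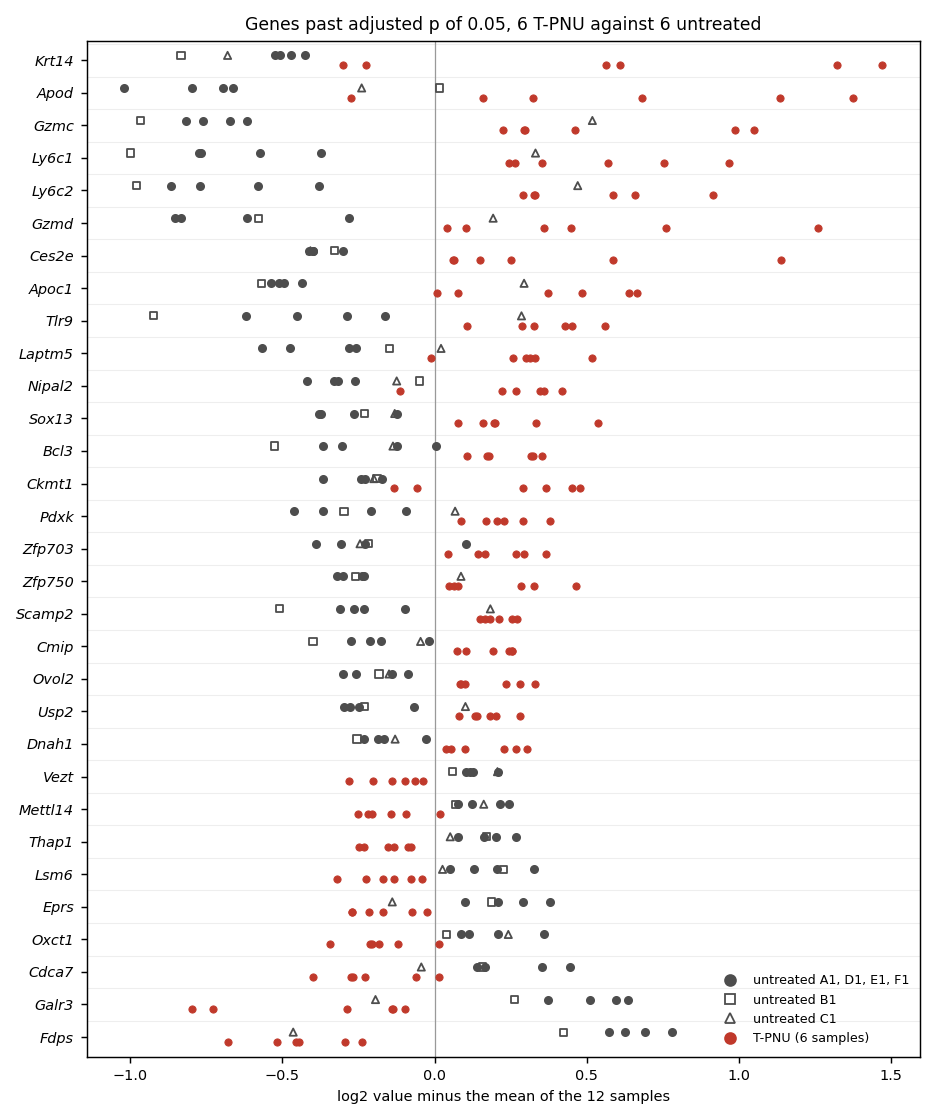
Each row is a gene past an adjusted p of 0.05 that is reported here, and each point is 1 sample's log2 value minus the gene's mean over the 12 samples, with T-PNU in red, untreated A1, D1, E1 and F1 in gray, B1 as open squares and C1 as open triangles. For Gzmc, Ly6c1, Ly6c2, Gzmd, Apoc1 and Fdps the open triangle of C1 lies among the T-PNU points, while Krt14, Ces2e, Bcl3 and Thap1 are separated in all 12 samples.

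Genes whose values did not overlap at all gave a view that rests on no model. All 6 T-PNU values lay above all 6 untreated values for 58 genes (0.341% of those tested) and below for 114 (0.671%). Of the 32 called genes, 15 were among them. Without B1 and C1 these numbers were 1364 (8.03%) and 1342 (7.90%). Leaving out samples can only keep or raise such numbers, so the direction of this change was fixed in advance. Among genes expressed above the median of all genes, the widest gaps above were those of Bcl3, Tnfrsf1b, Cmip, Clec16a, Trp53inp2 and Wdtc1. Tnfrsf1b, TNF receptor 2, lay at 14.4 to 14.6 in T-PNU and at 13.8 to 14.3 in untreated samples, a difference of 0.35 ± 0.10 with an adjusted p of 0.0677. Trp53inp2, a promoter of autophagy, differed by 0.31 ± 0.07 and Clec16a, an endosomal regulator of mitophagy, by 0.25 ± 0.06.

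The widest gaps below belonged to Ankrd37, Hspe1, Ndufaf5, Sarnp, Vezt and Wbp5. Ankrd37, a target of the hypoxia-inducible factor, lay at 9.05 to 9.60 in T-PNU and at 9.74 to 9.93 in untreated samples, a difference of -0.49 ± 0.11 with an adjusted p of 0.0519. Hspe1, the mitochondrial co-chaperone, lay at 9.89 to 10.1 against 10.2 to 10.8. Ndufaf5 helps to assemble respiratory complex I, and Sarnp takes part in mRNA export. They differed by -0.36 ± 0.10 and -0.34 ± 0.08. Of the genes in these 2 sets of 6 other than Bcl3, Cmip and Vezt, none passed an adjusted p of 0.05 against 6 untreated samples, and all but Wbp5 did against 4.

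Genes were also read by function and cell type in 46 lists with measured members. In each list, members are counted at an adjusted p under 0.05, against backgrounds of 0.135% higher and 0.0530% lower with 6 untreated samples and 11.7% and 13.7% with 4. Against all 6 untreated samples, no member was called in 41 of the 46 lists, and the 5 with any were sterol synthesis, lipid handling, macrophages and monocytes, tumor and epithelium, and keratinocytes. The keratinocyte list was added after the values were seen. Krt14, called in it, is also the 1 called member of the tumor and epithelium list. The counts of members below that name no comparison are against 4 untreated samples and carry the limit stated above for that choice of samples. Unless a sentence names another comparison, changes of list members are log2 fold changes ± SE against the 4 untreated samples other than B1 and C1. For each sample, the level of a list is given in log2 units: every member's value minus that gene's mean in the 12 samples, averaged over the members.

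**Figure D3:**
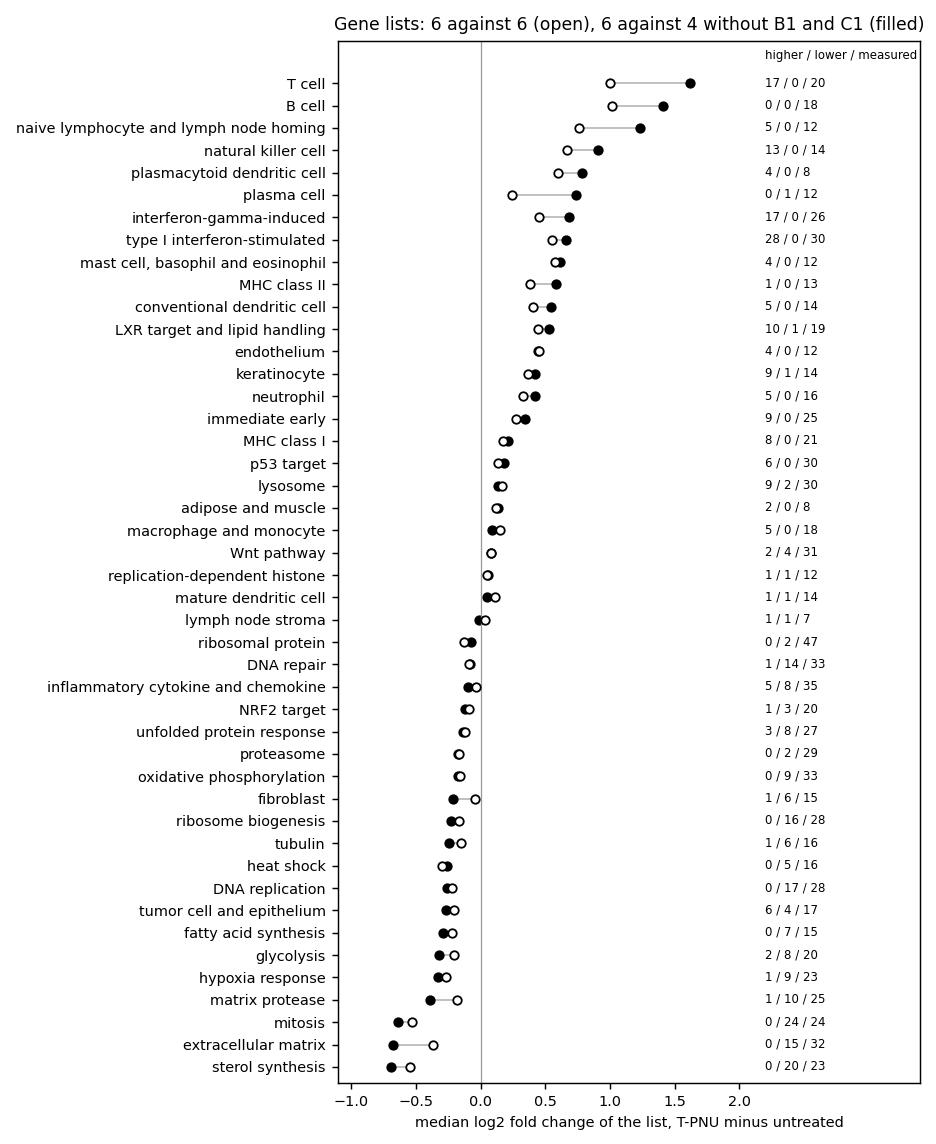
The median log2 fold change of each list with at least 7 measured members is shown against 6 untreated samples (open) and against 4 (filled), with the number of members higher, lower and measured in the latter at the right. Sterol synthesis, extracellular matrix and mitosis have the lowest medians and T cells the highest against 4 untreated samples. Against 6, B cells (1.02) lie just above T cells (1.00).

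Cells make cholesterol from acetyl-CoA by way of mevalonate and squalene, under the transcription factor SREBP2. Sterol synthesis genes were lower in T-PNU samples with 1 of 23 members called against 6 untreated samples, Fdps, and 20 of 23 called against 4, with median log2 fold changes of -0.55 and -0.69. None was higher in either comparison. The list's level ran from -0.38 to -0.21 in T-PNU samples, from 0.31 to 0.48 in 5 untreated samples, B1 among them, and was -0.40 in C1. C1 was thus below every T-PNU sample.

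Along the pathway, Hmgcs1, the HMG-CoA synthase, fell by 0.96 ± 0.20 without B1 and C1. Its values were 11.3 to 11.8 in T-PNU, 12.3 to 12.8 in the 4 untreated samples, 12.2 in B1 and 11.2 in C1. Mvd, which decarboxylates mevalonate diphosphate, fell by 0.80 ± 0.15. Fdft1 and Sqle, which make and epoxidize squalene, fell by 1.25 ± 0.21 and 1.35 ± 0.27, to 0.422 and 0.391 of the untreated level. Sqle was 10.3 to 11.7 in T-PNU, 12.3 to 12.8 in the 4 untreated samples, 12.0 in B1 and 11.0 in C1. Lss makes lanosterol, and Cyp51 and Msmo1 act on lanosterol and the sterols that follow it. Cyp51 lay at 11.4 to 11.5 in all 6 T-PNU samples, at 12.5 to 12.8 in the untreated samples other than C1, and at 11.1 in C1. Its fall was 1.15 ± 0.20 against 4 untreated samples, and its difference was -0.88 ± 0.23 (adjusted p of 0.0664) against 6.

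Insig1, which retains SREBP in the endoplasmic reticulum and is itself an SREBP target, fell by 0.41 ± 0.11 and Srebf2, the gene of SREBP2, by 0.48 ± 0.11 without B1 and C1. Tm7sf2, a sterol reductase, was the 1 member with no overlap in all 12 samples, at 7.24 to 7.38 in T-PNU and 7.45 to 7.75 in untreated. Mvk, mevalonate kinase, differed by 0.37 ± 0.30 in the opposite direction and was not called. Its 2 highest values were 10.7 in T-PNU sample C2 and 10.4 in B1, the samples with the highest T cell levels of their groups.

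Fatty acid synthesis shared the direction, with 7 of 15 members lower and none higher against 4 untreated samples and none called against 6. Fads2, a desaturase of polyunsaturated fatty acids, fell by 1.33 ± 0.24, Elovl6, an elongase, by 1.06 ± 0.17 and Acaca, acetyl-CoA carboxylase, by 0.64 ± 0.11. Genes that export or handle lipid went the other way. In the list of liver X receptor targets and lipid handling, 10 of 19 members were higher and 1 was lower against 4 untreated samples, and 1 was higher against 6, Apoc1. Abcg1 and Abca1, the cholesterol efflux pumps, rose by 1.11 ± 0.18 and 0.44 ± 0.12. Abcg1 lay at 11.9 to 12.4 in T-PNU, 10.7 to 11.4 in the 4 untreated samples, 11.7 in B1 and 12.3 in C1. The levels of the macrophage and monocyte list beside these were -0.17 to 0.36 in T-PNU, -0.10 to 0.03 in the 4 untreated samples, -1.05 in B1 and 0.68 in C1, and their part in the lipid genes was not tested.

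Interferons signal through STAT2 and IRF9 to a large set of antiviral genes. Of 30 genes stimulated by type I interferon, 28 were higher against 4 untreated samples and none lower. All 30 had positive differences against 6, but none of them passed an adjusted p of 0.05 (29 had an unadjusted p under 0.05), and the median was 0.55 against 6 and 0.66 against 4. The level of the list was 0.11 to 0.52 in T-PNU, -0.56 to -0.09 in the 4 untreated samples, -0.81 in B1 and 0.69 in C1.

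Irf7, the transcription factor that amplifies interferon-alpha production, ran from 14.3 to 15.0 (median 14.5) in T-PNU and from 13.4 to 14.1 in the 4 untreated samples, with 13.1 in B1 and 14.8 in C1. It rose by 0.93 ± 0.16 against 4 untreated samples, and the difference against 6 was 0.82 ± 0.21 with an adjusted p of 0.0634. Oas3, which senses double-stranded RNA, was 12.1 to 12.4 in T-PNU and 11.1 to 11.9 in the 4, and it rose by 0.81 ± 0.16. Stat2 rose by 0.66 ± 0.14, Ifit3, which binds viral RNA, by 0.94 ± 0.19, Mx1, an antiviral GTPase, by 0.96 ± 0.20 and Isg15, a ubiquitin-like modifier, by 0.65 ± 0.16. In Oas3, Ifit3, Mx1 and Isg15, C1 was the highest of all 12 samples and B1 the lowest.

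Genes induced by interferon-gamma were higher for 17 of 26 members and lower for none against 4 untreated samples, and none was called against 6. Gbp6 and Gbp10, guanylate-binding proteins that attack intracellular microbes, rose by 1.22 ± 0.25 and 0.99 ± 0.26. Of the MHC class I list, 8 of 21 members were higher and none lower. H2-K1, a classical class I heavy chain, was 15.8 to 16.1 in T-PNU and 15.5 to 15.7 in the 4 untreated samples, a rise of 0.35 ± 0.09, and the nonclassical H2-T24 rose by 0.70 ± 0.13. Of 13 class II genes, 1 was called, Cd74, the invariant chain, which rose by 0.69 ± 0.21.

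**Figure D4:**
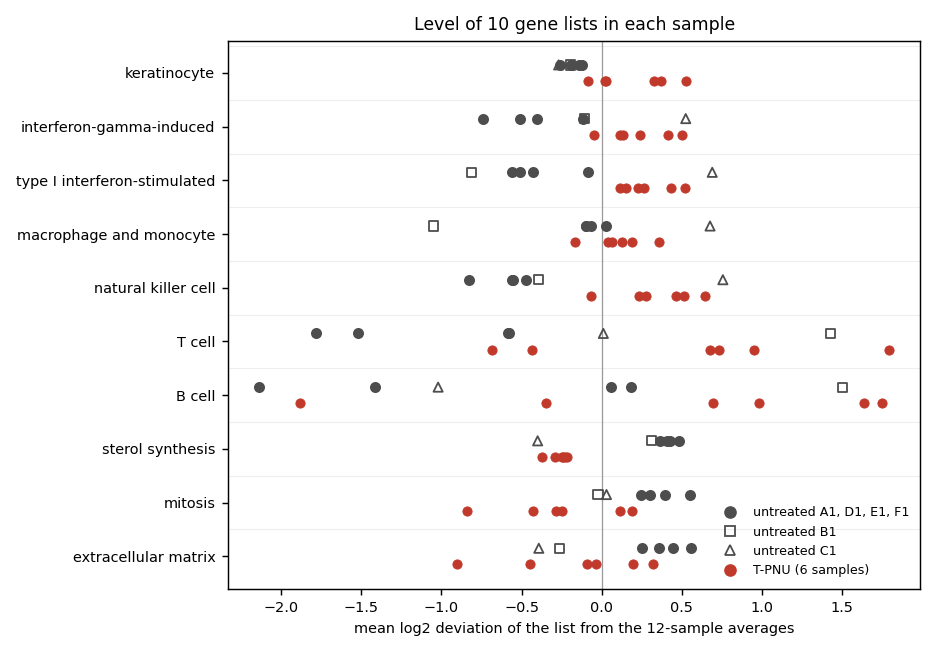
Each point is the level of a gene list in 1 sample, averaged over its members after each gene's mean in the 12 samples was subtracted (log2 units), with T-PNU in red, untreated in gray and B1 (square) and C1 (triangle) open. C1 lies with or beyond the T-PNU samples for interferon, natural killer and sterol genes, and B1 lies with the high T-PNU samples for T and B cell genes.

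Lymphocyte genes held the largest differences and the largest spread. Of 20 T cell genes, 17 were higher and none lower against 4 untreated samples, with a median of 1.62, and none was called against 6, with a median of 1.00. The level ran from -0.69 to 1.79 in T-PNU samples and from -1.78 to -0.58 in the 4 untreated samples, and was 1.43 in B1 and 0.01 in C1. G1 and A2 were the 2 lowest T-PNU samples. Cd3d, a chain of the T cell receptor complex, was 8.93 to 11.6 (median 10.4) in T-PNU and 7.83 to 9.05 in the 4 untreated samples, and rose by 1.69 ± 0.55. Against 6 the difference was 0.98 ± 0.58 with an adjusted p of 0.281.

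Genes of T cells made up most of the 12 largest rises among genes expressed above the median without B1 and C1. They included Cd28, the costimulatory receptor, up by 1.87 ± 0.50, Tcf7, a transcription factor of naive and memory-like T cells, up by 1.81 ± 0.60, and Prkcq, the kinase PKC-theta of T cell signaling, up by 1.90 ± 0.61. Cd247, Skap1, Cd4, Cd2 and Sh2d2a, all genes of T cell signaling or surface receptors, rose by 1.64 to 1.76, and Sidt1, a transmembrane protein, rose by 1.95 ± 0.72. Cd8a, of cytotoxic T cells, rose by 1.37 ± 0.32 and lay at 9.43 to 10.8 in T-PNU and at 8.49 to 9.23 in the 4 untreated samples. Every one of these genes overlapped between the groups of 6.

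B cell genes moved with the T cell genes. The level of the B cell list ran from -1.88 to 1.75 in T-PNU and from -2.14 to 0.18 in the 4 untreated samples, with 1.5 in B1 and -1.02 in C1. The median log2 fold change was 1.41 against 4 untreated samples, and none of 18 members was called in either comparison, Cd79b of the B cell receptor among them at 1.43 ± 0.79 (adjusted p of 0.170). Glycam1, a glycoprotein of lymph node high endothelial venules, ran from 4.68 to 9.43 in T-PNU and from 4.27 to 6.21 in untreated samples, a difference of 2.07 ± 0.97 against 4 untreated samples that was not called (adjusted p of 0.109). Of the lymph node stroma list, 7 of 12 genes were measured, 1 was higher and 1 lower without B1 and C1, and the level was -0.19 to 0.54 in T-PNU and -0.24 to 0.02 in the 4 untreated samples. Whether lymphoid tissue taken with the tumor had a part in the T cell values was not tested.

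Natural killer cell genes differed with less spread than T cell genes. Of 14 members, 13 were higher against 4 untreated samples and none lower, with a median of 0.91. None of the 14 was called against 6, where 12 had an unadjusted p under 0.05 and the median was 0.67. Their level was -0.07 to 0.64 in T-PNU, -0.83 to -0.48 in the 4, -0.39 in B1 and 0.76 in C1. Klrd1, the CD94 receptor, rose by 1.45 ± 0.25, Prf1, perforin, by 1.35 ± 0.25, Gzmb by 1.27 ± 0.22 and Gzma by 1.15 ± 0.22. Gzmb was 11.0 to 12.3 in T-PNU, 9.90 to 10.6 in 5 untreated samples and 12.4 in C1. Several of these genes are also expressed by activated CD8 T cells.

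Myeloid lists differed less. Of 18 macrophage and monocyte genes, 5 were higher and none lower without B1 and C1 (1 higher with them, Ly6c2), and the median was 0.09. Fcgr1, the high-affinity IgG receptor, rose by 0.59 ± 0.12, with 14.0 to 14.2 in T-PNU and 13.5 in each of the 4 untreated samples, while B1 was at 12.6 and C1 at 14.6. Cd163, a scavenger receptor of resident macrophages, differed by -1.13 ± 0.42 and was not called (adjusted p of 0.0514). Among neutrophil genes 5 of 16 were higher, such as Retnlg by 0.92 ± 0.23 and Ltf, lactoferrin, by 0.82 ± 0.24, and T-PNU sample H1 was the highest of its group for both.

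In the conventional dendritic cell list, 5 of 14 genes were higher and none lower without B1 and C1, and in the plasmacytoid list 4 of 8. Of 30 lysosome genes, 9 were higher and 2 lower. Psap, the precursor of the saposins, rose by 0.43 ± 0.11, and Gpnmb, a glycoprotein of lipid-laden macrophages, by 0.57 ± 0.19. Immediate early genes were higher for 9 of 25 members and lower for none. Zfp36, which destabilizes cytokine mRNAs, lay at 15.0 to 15.1 in all T-PNU samples and at 14.3 to 14.7 in the 4 untreated samples, and rose by 0.54 ± 0.11.

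Genes of cell division were lower. All 24 mitosis genes fell without B1 and C1, with a median of -0.64. Against 6 untreated samples all 24 had negative differences, 22 with an unadjusted p under 0.05, and none passed an adjusted p of 0.05, with a median of -0.53. Levels ran from -0.84 to 0.19 in T-PNU, from 0.24 to 0.55 in the 4 untreated samples, and were -0.02 in B1 and 0.03 in C1. G1 and A2, the T-PNU samples with the lowest T cell levels, had the highest mitosis levels of their group, 0.19 and 0.11.

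Ndc80, a kinetochore protein, fell by 0.66 ± 0.14 without B1 and C1, with 9.05 to 9.82 in T-PNU and 9.99 to 10.4 in the 4 untreated samples. Cenpf, another kinetochore protein, fell by 0.87 ± 0.19, Bub1b, a spindle checkpoint kinase, by 0.76 ± 0.16 and Mki67, the proliferation marker Ki-67, by 0.61 ± 0.14. Of 28 DNA replication genes, 17 were lower and none higher. Tyms, thymidylate synthase, fell by 0.72 ± 0.17. Mcm6 and Mcm3, subunits of the replicative helicase, fell by 0.31 ± 0.07 and 0.22 ± 0.07 and were 2 members that did not overlap even with B1 and C1 included. Tubulin genes were lower for 6 of 16 and higher for 1. Tubb5 fell by 0.57 ± 0.13, and Tuba1b by 0.33 ± 0.11 without overlap in the 12 samples.

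DNA repair genes, read because the payload damages DNA, were lower for 14 of 33 members and higher for 1 without B1 and C1. Tdp1, which removes trapped topoisomerase I, fell by 0.44 ± 0.10, Blm, a helicase of homologous recombination, by 0.52 ± 0.11, and Parp2, which responds to strand breaks, by 0.21 ± 0.06. Of 30 p53 targets, 6 were higher and none lower. Trp53inp1 rose by 1.20 ± 0.25 and Perp, an apoptosis effector and desmosomal protein, by 0.78 ± 0.16. Cdkn1a, the p21 cell cycle inhibitor, was 14.1 to 14.6 in T-PNU and 13.4 to 14.3 in untreated samples, and was not called in either comparison (0.32 ± 0.12 against 6, adjusted p of 0.104, and 0.24 ± 0.10 against 4, adjusted p of 0.0668). Trp53inp1 was 11.9 in B1, the untreated sample with the highest T cell level, and 9.99 to 10.6 in the other 5.

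Among genes of energy metabolism, 8 of 20 glycolysis genes were lower and 2 higher without B1 and C1, and none was called with them. Aldoc, an aldolase, fell by 0.89 ± 0.17, Pdk1, which restrains pyruvate oxidation, by 0.61 ± 0.16, while Slc2a3, the glucose transporter of leukocytes and neurons, rose by 0.67 ± 0.18. Of 23 hypoxia response genes, 9 were lower and 1 higher, and none was called against 6. Ak4, an adenylate kinase, and Plod2, a collagen lysyl hydroxylase, fell by 0.80 ± 0.22 and 0.95 ± 0.29, and Stc2, a stanniocalcin, rose by 1.27 ± 0.31. Of 33 nuclear genes of oxidative phosphorylation, 31 had negative differences and 9 were called lower, a share above the 13.7% of all genes, and none was called against 6. Atp5b and Atp5c1, subunits of the ATP synthase, fell by 0.33 ± 0.08 and 0.35 ± 0.10, and Ndufb5 of complex I by 0.20 ± 0.07 with no overlap in the 12 samples.

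Lists of protein synthesis and quality control differed from each other. Of 28 ribosome biogenesis genes, 16 were lower and none higher without B1 and C1, and none was called with them. Mrto4 fell by 0.40 ± 0.09 and Dkc1, dyskerin, by 0.51 ± 0.12. Ribosomal protein genes were lower for 2 of 47, Rpl3 among them by 0.25 ± 0.07, and proteasome genes for 2 of 29, both below the 13.7% of all genes. All 29 proteasome differences were negative, with a median of -0.17, while 13 of the 47 ribosomal protein differences were positive. In the unfolded protein response list, 8 of 27 were lower and 3 higher. Asns and Trib3 fell by 0.96 ± 0.21 and 0.52 ± 0.12, whereas Syvn1, an ubiquitin ligase of the endoplasmic reticulum, rose by 0.58 ± 0.17. Creld2 and Manf, secreted proteins of that response, fell by 0.23 ± 0.08 and 0.27 ± 0.10 and did not overlap in the 12 samples. Of 16 heat shock genes, 5 were lower, with Hspe1 at -0.44 ± 0.10 and its partner Hspd1 at -0.45 ± 0.10.

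Most extracellular matrix genes are expressed mainly by fibroblasts and carcinoma cells, and they were measured in these CD45-enriched samples. Fn1, fibronectin, which macrophages also express, lay at 14.4 to 16.5 in T-PNU and at 15.3 to 16.7 in untreated samples. Without B1 and C1, 15 of 32 matrix genes were lower and none higher, with a median of -0.67, and none was called against 6, with a median of -0.37. Levels were -0.90 to 0.32 in T-PNU, 0.25 to 0.55 in the 4 untreated samples, -0.26 in B1 and -0.39 in C1. Cthrc1, a secreted collagen-associated protein, fell by 1.45 ± 0.35, Col12a1, a fibril-associated collagen, by 1.37 ± 0.32, Col5a3 by 1.15 ± 0.22 and Fn1 by 1.14 ± 0.32. Outside the list, Col14a1, another fibril-associated collagen, and Matn2, a matrilin, fell by 1.23 ± 0.30 and 1.28 ± 0.28.

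Secreted proteases and ligands were among the largest falls as well. Mmp10, stromelysin-2, fell by 1.41 ± 0.36, Adam12 by 0.96 ± 0.23 and Plat, tissue plasminogen activator, by 1.03 ± 0.27, and 10 of 25 matrix protease genes were lower. The 1 higher member was Mmp25, a leukocyte metalloprotease, up by 0.64 ± 0.16. Wnt7b, a Wnt ligand, ran from 7.37 to 9.36 in T-PNU and from 9.41 to 10.1 in the 4 untreated samples, with 9.24 in B1 and 7.83 in C1, and fell by 1.46 ± 0.33. In the inflammatory cytokine and chemokine list 5 of 35 members were higher and 8 lower. Il11, a cytokine of the IL-6 family, fell by 1.22 ± 0.32, Cxcl5, a neutrophil attractant, by 0.92 ± 0.28 and Spp1, osteopontin, by 0.80 ± 0.26. Ccl5 and Ccl8, chemokines for T cells and monocytes, rose by 0.79 ± 0.20 and 0.80 ± 0.23. Cp, ceruloplasmin, was also among the 12 largest falls, with 1.29 ± 0.31.

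Genes of non-leukocyte cells were lower in some lists and higher in others. Fibroblast genes were lower for 6 of 15 and higher for 1, with Pdgfrb, the receptor of PDGF-B, down by 1.08 ± 0.28. The 1 higher member was Thy1, up by 1.41 ± 0.31, which is also in the T cell list. Tumor and epithelial genes split, with 6 of 17 higher and 4 lower. Krt8, a simple epithelial keratin, fell by 0.73 ± 0.22 and Fgfbp1, an FGF carrier, by 1.12 ± 0.21, while Epcam, an epithelial adhesion molecule, rose by 1.00 ± 0.31. Endothelial genes were higher for 4 of 12 and lower for none. Vwf, von Willebrand factor, did not overlap in the 12 samples (7.63 to 8.25 in T-PNU, 6.91 to 7.60 in untreated), and Kdr, a VEGF receptor, rose by 0.92 ± 0.20. The tumor and epithelial list had a level of -0.50 to 0.40 in T-PNU, -0.05 to 0.09 in the 4 untreated samples, 0.09 in B1 and -0.35 in C1, and the fibroblast list one of -0.57 to 0.39, 0.04 to 0.32, -0.23 and -0.43. The part of carried-over tumor, stromal or vessel cells in the matrix, mitosis, sterol and lymphocyte values was not tested.

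Since Krt14 led the called genes, a keratinocyte list was added after the values were seen, and Krt14 was the reason for it. Of its 14 measured genes, 3 were higher against 6 untreated samples, Krt14, Zfp750 and Ovol2, and 9 were higher and 1 lower against 4. Krt14, Zfp750 and Ovol2 were among the 23 higher genes already seen, so the count and the list's levels give them no further support. The level was -0.09 to 0.52 in T-PNU and -0.27 to -0.13 in all 6 untreated samples, C1 and B1 included. Krt5, the partner of Krt14, was 3.76 to 6.15 in T-PNU and 3.38 to 3.90 in untreated samples. Against 6 untreated samples its difference was 1.38 ± 0.30, with an adjusted p of 0.0519. Sbsn, suprabasin, did not overlap. G1, D2, B2 and C2 had the 4 highest Krt5 values. Trp63, a master factor of basal epithelium, fell by 0.72 ± 0.25 without B1 and C1.

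Promoters of the interferon, sterol and mitosis genes were searched for 8 short motifs on either strand, with N as any base. Of these, 4 are described here, and the others were the E-box CACGTG, the TATA box TATAAA, the sterol element CACCCCAC, held by 11.8% of sterol synthesis promoters (2 of 17) and 2.64% of all, and the string GGAANNCC. RefSeq promoters (GRCm38.p6), read over the 250 bases before the start site, were found for 11465 of the genes tested. GAAANNGAA is the core of the interferon-stimulated response element, and CCAAT is the box bound by NF-Y. The first was held by 6.56% of all promoters, by 55.0% of 20 type I interferon-stimulated genes and by 86.7% of 15 interferon-gamma-induced genes. The CCAAT box was held by 35.8% of all promoters, 85.0% of 20 mitosis genes, 88.2% of 17 sterol synthesis genes and 59.1% of 22 DNA replication genes. GGGCGG, the GC box, was held by 56.0% of all promoters, 94.1% of sterol synthesis, 75.0% of mitosis and 72.7% of DNA replication genes, and by 30.0% and 40.0% in the type I and gamma interferon lists. TGANTCA, the AP-1 site, was held by 4.88% of all promoters, 30.0% of type I interferon-stimulated and 20.0% of interferon-gamma-induced genes. Among all genes called without B1 and C1, GAAANNGAA was in 9.66% of 1429 promoters of higher genes and 5.22% of 1704 of lower genes, and CCAAT was in 34.7% and 38.0%. A match is a string of letters and not a bound site, and these lists were defined by function and not by promoter.

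**Figure D5:**
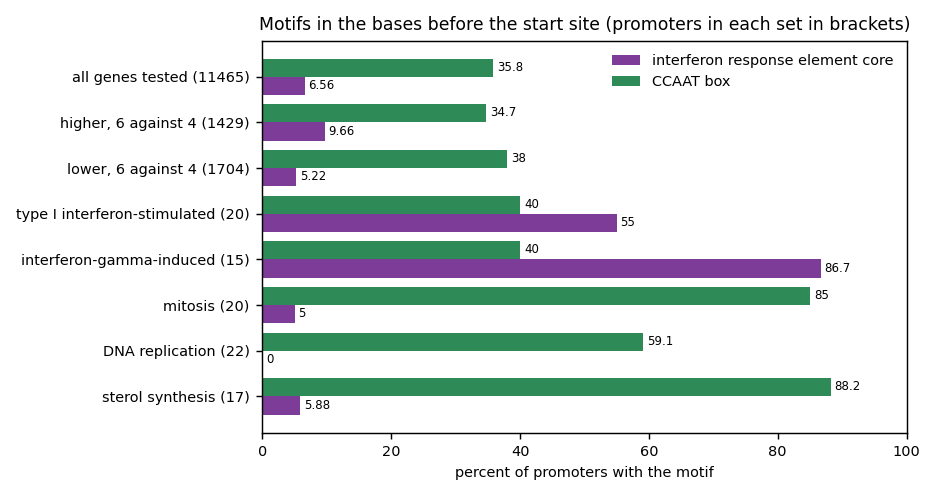
Bars give the percent of promoters that hold the interferon response element core or the CCAAT box within 250 bases before the start, with the number of promoters in brackets. The interferon core stands out in the interferon lists (55.0% and 86.7%, against 6.56% of all genes) and the CCAAT box in mitosis and sterol synthesis (85.0% and 88.2%, against 35.8%).

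The sequences below are the promoters of the 2 members of each list that had the smallest p without B1 and C1 among those whose promoter holds the motif, shown to let the motif be read in place. Each is 250 bases, 5′ to 3′ on the gene's strand, ending at the base before the start, with the motif or its reverse complement in capitals. Oas3 (chr5:120777660-120777909, minus strand) and Ifit3 (chr19:34583279-34583528, plus strand) hold 2 overlapping and 3 separate copies of the interferon core, those of Ifit3 as the reverse complement.
Oas3: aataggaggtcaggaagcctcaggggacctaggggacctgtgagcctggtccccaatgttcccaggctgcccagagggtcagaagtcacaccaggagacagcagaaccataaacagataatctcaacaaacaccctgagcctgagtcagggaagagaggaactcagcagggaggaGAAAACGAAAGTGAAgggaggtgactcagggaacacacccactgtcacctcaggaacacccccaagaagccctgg
Ifit3: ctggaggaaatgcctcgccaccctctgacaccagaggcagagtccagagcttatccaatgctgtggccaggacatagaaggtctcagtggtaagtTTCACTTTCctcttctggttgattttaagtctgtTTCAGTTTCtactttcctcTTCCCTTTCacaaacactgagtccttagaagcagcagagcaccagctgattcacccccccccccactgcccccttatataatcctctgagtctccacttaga

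Lss (chr10:76531355-76531604, plus strand) and Cyp51 (chr5:4104698-4104947, minus strand), of sterol synthesis, hold 1 CCAAT box each, that of Lss as the reverse complement.
Lss: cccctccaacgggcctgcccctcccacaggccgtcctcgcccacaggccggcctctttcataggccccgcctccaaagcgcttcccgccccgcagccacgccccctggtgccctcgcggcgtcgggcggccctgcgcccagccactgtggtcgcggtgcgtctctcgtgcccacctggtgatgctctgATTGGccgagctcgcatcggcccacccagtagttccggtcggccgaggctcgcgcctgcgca
Cyp51: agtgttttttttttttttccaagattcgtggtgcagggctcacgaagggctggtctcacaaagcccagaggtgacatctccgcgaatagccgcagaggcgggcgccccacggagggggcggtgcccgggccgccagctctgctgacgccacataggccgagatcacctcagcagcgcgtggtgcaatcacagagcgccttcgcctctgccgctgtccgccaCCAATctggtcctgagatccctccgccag

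Bub1b (chr2:118597961-118598210, plus strand) and Cenpf (chr1:189688087-189688336, minus strand), of mitosis, hold 1, as the reverse complement, and 2.
Bub1b: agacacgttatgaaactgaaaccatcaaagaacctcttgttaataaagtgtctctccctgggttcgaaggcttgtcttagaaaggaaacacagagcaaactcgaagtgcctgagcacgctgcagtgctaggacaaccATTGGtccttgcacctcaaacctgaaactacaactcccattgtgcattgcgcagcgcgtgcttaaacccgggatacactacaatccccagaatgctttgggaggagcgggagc
Cenpf: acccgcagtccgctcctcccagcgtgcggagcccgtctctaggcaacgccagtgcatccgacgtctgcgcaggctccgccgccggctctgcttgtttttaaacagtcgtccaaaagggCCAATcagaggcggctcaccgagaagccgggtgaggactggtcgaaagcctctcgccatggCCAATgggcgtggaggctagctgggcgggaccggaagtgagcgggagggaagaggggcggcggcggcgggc

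The called genes were also compared with all genes by type and length. Protein-coding genes made up 91.1% of the higher and 92.8% of the lower genes without B1 and C1, against 83.0% of all genes tested. The median transcript length was 1703 bases for higher genes, 1261 for lower genes and 1350 for all genes, and median GC content was 50.7%, 49.9% and 50.4%. Median expression was 9.38 and 9.62 in the called genes and 8.79 over all genes.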

How the data were processed

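RNA from bead-enriched CD45+ cells of 24 tumors was sequenced (TruSeq stranded mRNA), 6 tumors per group, with 12 used for this comparison. Per the labels and the study's methods, the authors aligned reads to mm10 with STAR 2.4.2a, counted them by gene with featureCounts (Subread 1.5.0), removed genes with a low average count and analysed them with DESeq2. The deposited values are the authors' normalized log2 values and were treated here as normalized for library size. The transformation is not given in the sources used here, no read counts were used, and depth is unknown. No test on counts was therefore made.

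Groups were taken from the labels. limma 3.58.1 (R 4.3.3) with an intensity trend was fitted to all 16996 genes in 24 samples, with the contrast T-PNU minus untreated (20 residual degrees of freedom), and again in 22 samples without untreated B1 and C1 (18). The trastuzumab and T-DM1 samples entered for the spread only. P-values were adjusted by Benjamini-Hochberg over all genes and called under 0.05. Single genes were also given a two-sided exact permutation test over 6 against 6 samples. Lists are described by counts and medians, with no list test. The script was tested on simulated data with known fold changes. Alternatives were the sample set, normalization, expression filter, sample weights, variance moderation, a B cell level covariate and each sample left out. Figures were drawn with matplotlib 3.10.9.

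Members and gene lists were chosen with earlier results of these data known. Named genes were the 12 largest rises and falls of each fit among annotated genes expressed above the median, the 6 widest gaps in each direction, and in each list the 2 higher and 2 lower members of smallest p. The remaining called genes and other list members were named after their values were seen, as was the keratinocyte list. Some genes the rule covers are not reported here. Promoter sequences and coordinates are of GRCm38.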

Additional observations from a re-analysis of the deposited data

Results flagged for a closer look

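In 16 of 156 groups of 6 values, 1 sample lay far from the other 5 by Dixon's test, and chance flags about 5% of groups. Most involved C1 among the untreated samples. Its list levels were 0.756 for natural killer cell genes (others -0.83 to -0.39), 0.572 for conventional dendritic cell genes (-0.46 to -0.21), -0.350 for tumor and epithelial genes (-0.05 to 0.09), -0.400 for sterol synthesis (0.31 to 0.48) and -0.373 for fatty acid synthesis (0.20 to 0.30). C1 also stood apart for Gzmc at 9.87, Apoc1 at 4.42, Zfp750 at 2.72 and Fdps at 6.75, each on the side of the T-PNU values.

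Untreated B1 stood apart for glycolysis at -0.245 (others 0.11 to 0.22) and for inflammatory cytokines and chemokines at -0.669 (0.01 to 0.31). T-PNU sample H1 stood apart for neutrophil genes at 0.824 (others -0.03 to 0.09) and for ribosome biogenesis at -0.253 (-0.08 to -0.01). Single genes with an isolated sample were Nipal2 in T-PNU A2 at 2.92, Ckmt1 in untreated A1 at 2.56 and Zfp703 in untreated E1 at 11.0. The cause was not tested for any of them.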

How the results depend on the processing

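The count of genes depended on the samples and the model. Of 3464 pairs of a named gene and an alternative, 3462 kept the direction. The exceptions were both of Mvk, at -0.066 with the B cell level as a covariate and -0.0083 without T-PNU replicate 5 (its highest value with 1 sample left out was 0.44, without untreated replicate 2). Fitting the 12 samples alone, filtering by expression and changing the variance moderation cannot alter a difference in means, so direction was fixed there. The alternatives without B1 and C1 and no other change to the values share the same estimate. Many genes were also named for large differences, so the number of pairs does not measure how firm the directions are. The 32 genes called against 6 untreated samples held the call in 324 of 690 pairs. All 32 held it without B1 and C1, without C1, G1 or A2 alone, and with sample weights, and none held it when the 12 samples were fitted alone or after quantile normalization.

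Against 6 untreated samples, the 23 higher and 9 lower genes became 0 and 0 in the 12 samples alone and after quantile normalization, 2914 and 2913 with sample weights, 1987 and 2331 without B1 and C1, 2607 and 2672 in the 20 samples of the study's heatmaps, 1296 and 1000 in 10 samples alone, and 546 and 967 at an adjusted p under 0.10. The lower genes were 57 among genes above the median and 5 with the B cell covariate. Leaving out 1 sample gave 0 to 1283 higher and 0 to 1646 lower genes. Genes past a false discovery rate of 0.01 and 2-fold were 0, against 86 with weights, 63 without B1 and C1, 162 in 20 samples, 32 in 10 samples and 0 to 48 with 1 sample left out.

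Without B1 and C1, the 1987 higher genes became 1296 in 10 samples alone, 1233 among genes above the median, 3657 with weights, 1162 with the B cell covariate, 3241 at an adjusted p under 0.10, 1283 with B1 kept and 0 with C1 kept. The 2331 lower genes became 1000, 1117 with the covariate and 0 with C1 kept. Leaving out 1 more sample gave 493 to 2945 higher and 507 to 3109 lower genes. The 63 genes past both thresholds became 162 in 20 samples, 32 in 10, 227 with weights, 29 with the covariate, 0 with C1 kept and 0 to 239 with 1 sample left out. Non-overlapping genes were 1364 above and 1342 below without B1 and C1, 17 above among genes over the median, and 62 to 716 above and 118 to 565 below with 1 sample left out. Leaving out samples can only keep or raise these numbers, and the expression filter can only keep or lower them. The cause was not tested. Depth is unknown, so low genes cannot be given a detection limit. No paired analysis was possible because replicate numbers were given in accession order and tie no animals together.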
